A study of Mus musculus with 20 samples.

Results

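Cckar encodes the cholecystokinin A receptor. It was chosen because its count fell over the 4 diets of this study of mouse proximal colon (PC), and it is 1 of the 12701 genes in the count table. The genes set beside it below were chosen by how closely they followed it over the libraries, or belong to lists of its pathway and of cell types. C57BL/6 mice were kept from weaning, at about 3 weeks of age, for 6 weeks on the Total Western Diet (TWD), which copies the nutrient make-up of the usual American diet in rodent feed. They then stayed on TWD (0% RPS) or received TWD with 2, 5, or 10% raw potato starch (RPS, a resistant starch) for 3 more weeks, so every group had the TWD. Each diet had 5 libraries made from a 1-cm piece of PC taken close to the cecum, which holds mucosa and muscle wall together. In such bulk RNA, fewer cells of a type and less RNA per cell cannot be told apart.

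The receptor is a G protein-coupled receptor of the cell surface that binds the sulfated forms of cholecystokinin (CCK), a peptide released by enteroendocrine cells after a meal and also made by neurons. It couples mainly to Gq, which activates phospholipase C and releases calcium from internal stores. It is best known for contraction of the gallbladder, secretion by pancreatic acinar cells, satiety signals through the vagus nerve, and effects on gut smooth muscle and motility.

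The annotated gene (ENSMUSG00000029193) lies on the minus strand of chromosome 5, at chr5:53855118-53865047 in GRCm39. GENCODE lists 3 transcripts for it, of which Cckar-201 (3639 bases) and Cckar-202 (3230 bases) are protein-coding with 5 exons each, and Cckar-203 has no defined coding sequence. No other annotated gene overlaps it, and 0 of its 3685 transcript windows of 50 bases, the read length, also occurred in a transcript of another gene. Its raw counts ran from 94 to 505 per library, well above the detection floor of 3 counts, with a mean of 208 normalised counts (counts divided by the size factor of the library). That mean lies at the 16.4th percentile of the table, so Cckar was one of the less abundant genes. Cck, Gast, and Cckbr, which encode the ligands CCK and gastrin and the second receptor of the family, were not analysed here.

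The libraries held 20581013 to 35083751 counts. One library stood apart before any gene was considered. The mean distance of 0% RPS replicate 2 to the rest of its diet was 38.53 on the variance-stabilised scale, against 18.95 to 27.37 for the other 19 libraries. The same library had the highest count of Cckar and of several genes described here, so values without it are given beside results that it moves. All markers measured for smooth muscle, colonocytes, goblet cells, and enteric neurons had counts in all 20 libraries.

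Cckar was highest without RPS and lower at each higher percentage of it. The 0% RPS libraries had 244, 526, 215, 311, and 241 normalised counts (replicates 1 to 5). The 2% RPS libraries had 292, 196, 243, 275, and 156. Of these 5, 3 lay inside the range of the 0% RPS libraries, and 2 lay below its lowest value of 215. The 5% RPS libraries had 185, 121, 201, 117, and 158 normalised counts. The 10% RPS libraries had 118, 152, 143, 185, and 90.8. All 5 libraries at 5% RPS and all 5 at 10% RPS were below the lowest 0% RPS library, while the 5% and 10% RPS libraries overlapped each other over most of their range. Of the 12576 genes with counts, 0.262%, 0.962%, and 1.17% had every library below the lowest 0% RPS library at 2, 5, and 10% RPS. Since Cckar was chosen for this fall, its place among them is a description.

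**Figure D1:**
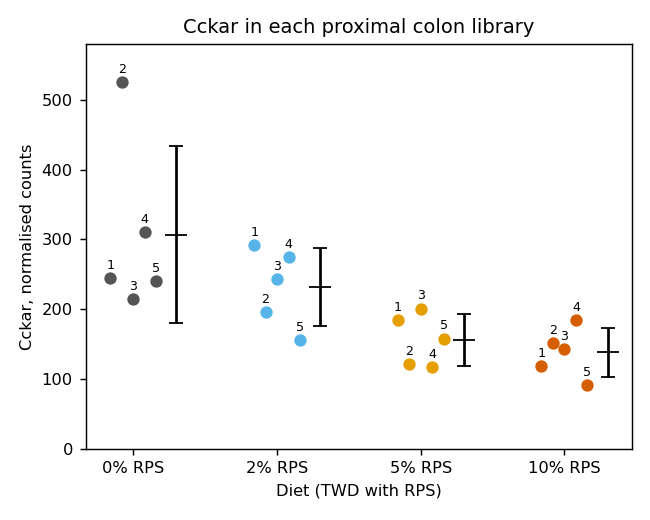
Cckar normalised counts (y axis, from 0) in the 5 libraries of each diet (x axis), each point labelled with its replicate number. The dash and bar to the right of each group give the mean and SD, which go from 307 ± 127 at 0% RPS to 138 ± 35.5 at 10% RPS, and 0% RPS replicate 2 stands highest at 526.

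The mean was 307 ± 127 normalised counts at 0% RPS, 232 ± 56.2 at 2%, 156 ± 37.6 at 5%, and 138 ± 35.5 at 10% (SD, n = 5 each). Relative to 0% RPS, these means were 75.7%, 51% and 44.8%. In order of level, each diet overlapped the next one, so that 0% and 2% RPS, 2% and 5% RPS, and 5% and 10% RPS did not separate library by library. On the log2 scale, the DESeq2 difference from 0% RPS was -0.40 (SE 0.25) at 2% RPS, -0.97 (SE 0.25) at 5%, and -1.16 (SE 0.25) at 10%. All 3 differences are measured against the same 0% RPS libraries. The fitted slope was -0.11 log2 units per 1% of RPS (SE 0.02). Among the 12348 genes whose mean reached 10 normalised counts, 79 had a more negative difference at 5% RPS and 46 at 10% RPS. This rank is a description of a gene chosen for its fall.

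The highest 0% RPS library carried part of these sizes. Without 0% RPS replicate 2, the 0% RPS mean was 252 ± 41 (SD, n = 4), and the 2, 5, and 10% RPS means were 92.1%, 62%, and 54.6% of it. The log2 difference was then -0.12 at 2% RPS, -0.69 at 5%, and -0.87 at 10%. The 2% RPS value thus lay near 0 without that library, whereas the lowest 0% RPS count, which all 5% and 10% RPS libraries stayed under, came from replicate 3. Diet means accounted for 59.1% of the log2 variance of Cckar over the 20 libraries, against a median of 17.7% over the 12348 genes. Since Cckar was chosen for its fall over the diets, a high share follows from that choice. The remaining spread between mice on the same diet (pooled SD 0.41 on the log2 scale) is what the correlations after removing diet means describe.

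The gene that followed Cckar most closely over the 20 libraries was Cttnbp2, which encodes a cortactin-binding protein of the cytoskeleton. Pearson r on log2(normalised count + 1) was 0.933, Spearman rho was 0.914, and r was 0.900 after the mean of each diet was taken away. Cttnbp2 had 443, 758, 375, 527, and 488 normalised counts in the 0% RPS libraries and 230, 345, 238, 306, and 216 in the 10% RPS libraries. It was highest in the library that was highest for Cckar, and its groups at 0% and 10% RPS did not overlap. Without 0% RPS replicate 2, its r was 0.906. Pln came next with an r of 0.915. It encodes phospholamban, the inhibitor of the calcium pump of the sarcoplasmic reticulum in muscle. Its r was 0.856 within diets and 0.874 without that library.

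**Figure D2:**
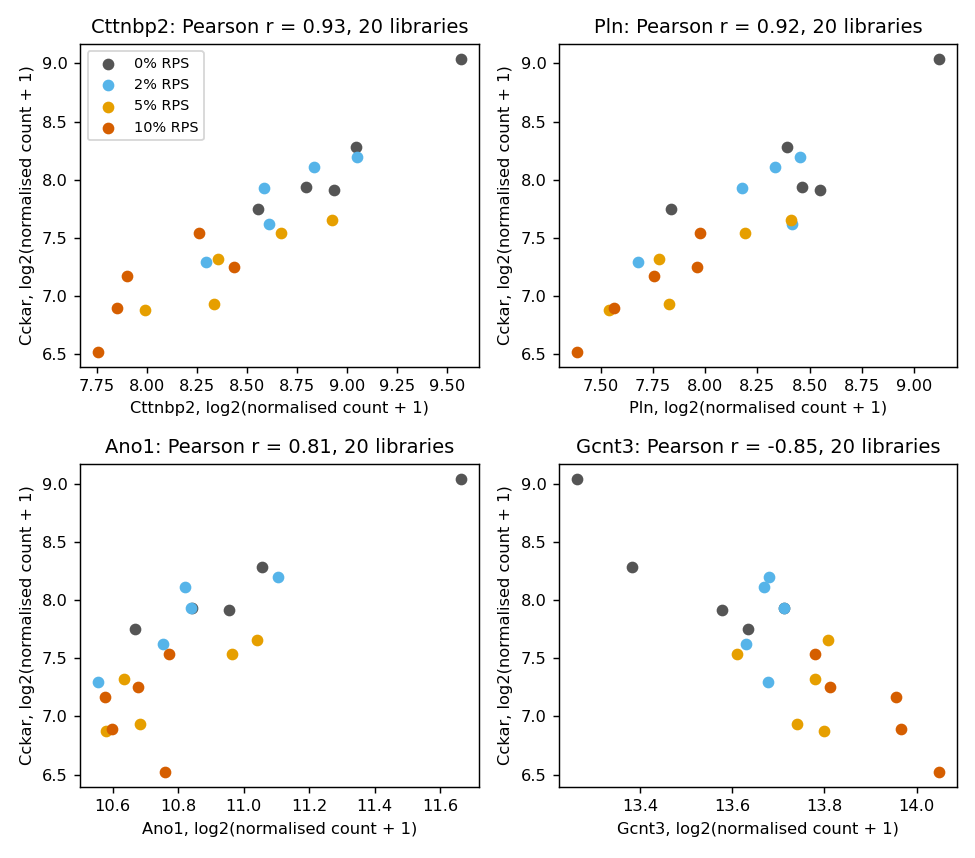
Cckar (y axis) against Cttnbp2, Pln, Ano1, and Gcnt3 (x axes), all as log2(normalised count + 1), with 1 point per library coloured by diet. Cckar rose with Cttnbp2 (r = 0.933), Pln (r = 0.915), and Ano1 (r = 0.81) and fell with Gcnt3 (r = -0.850), and the topmost point in each panel is 0% RPS replicate 2.

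Also among the 10 genes with the highest r were Mill2 (r = 0.902), Mab21l2 (r = 0.876), Aspn (r = 0.871), Ecm2 (r = 0.868), Gpr137b (r = 0.856), Fbln1 (r = 0.849), and Armcx1 (r = 0.842). Fxyd6, with an r of 0.839, was just outside. Among these, Aspn (asporin), Ecm2, and Fbln1 (fibulin 1) encode proteins of the extracellular matrix. Mill2 is related to the class I molecules of the major histocompatibility complex, Mab21l2 is a developmental regulator, and Gpr137b encodes a membrane protein of lysosomes. The difference from 0% RPS at 10% RPS was smaller for all 10 than for Cckar, from -0.96 (SE 0.20) for Cttnbp2 to -0.36 (SE 0.11) for Armcx1. The 20 points of any such pair share their libraries, size factors, and diets.

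When the mean of each diet was taken away, the 5 genes nearest to Cckar included Cttnbp2 (r = 0.900), Sdc2 (r = 0.858), Pln (r = 0.856), and Fibin (r = 0.854), with Diras2 (r = 0.850) just outside. Sdc2 encodes the cell surface proteoglycan syndecan 2, and Fibin a secreted protein. Sdc2 ranked 117 when diets were kept in (r = 0.735), and its difference at 10% RPS was only -0.14 (SE 0.08), so its closeness to Cckar was mainly between mice on the same diet. Its r was 0.558 without 0% RPS replicate 2. Of the 10 genes with the highest r, 3 were also among the 10 highest after diet means were taken away, and 5 after 0% RPS replicate 2 was left out.

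At the opposite end, the lowest r belonged to Gcnt3 (r = -0.850), which encodes an enzyme that branches the O-glycans of mucins. Gcnt3 had 13400, 9840, 12700, 10700, and 12200 normalised counts at 0% RPS and 16000, 14400, 15900, 14100, and 17000 at 10% RPS. Its lowest library was 0% RPS replicate 2, its highest was 10% RPS replicate 5, and these were the highest and the lowest library for Cckar. Riok3 (r = -0.820) and Arfgef1 (r = -0.814) were also among the 5 lowest, with Rnf115 (r = -0.809) just outside. Riok3 encodes an atypical kinase and Arfgef1 an exchange factor for ARF GTPases. These 3 negative correlations were weaker within diets, at -0.684 for Gcnt3, -0.674 for Riok3, and -0.714 for Arfgef1. Over all 12348 genes the median r with Cckar was -0.02, and 8.74% had an r above 0.5.

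Cckar was also set against marker lists of the cell types that a piece of colon wall can hold. The list closest to it was that of interstitial cells of Cajal, the pacemaker cells of the gut muscle, with a median r of 0.75 over Kit, Ano1, and Etv1. Ano1, the calcium-activated chloride channel of these cells, had an r of 0.81 (0.81 within diets), Etv1 an r of 0.75, and Kit, the receptor that defines them, an r of 0.45. The mean log2 level of the 3 genes had an r of 0.86 with Cckar, a rho of 0.86, an r of 0.85 within diets, and an r of 0.80 without 0% RPS replicate 2. Cckar therefore followed this list from mouse to mouse and not only over the diets.

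The markers themselves moved less than Cckar. Ano1 had 1840, 3240, 1630, 2130, and 1990 normalised counts at 0% RPS and 1550, 1640, 1530, 1750, and 1730 at 10% RPS. The groups overlapped, and its difference was -0.40 (SE 0.15), with an adjusted p of 0.0962 in DESeq2. Etv1 differed by -0.36 (SE 0.14, adjusted p = 0.109 in DESeq2) and Kit by -0.12 (SE 0.11, adjusted p = 0.58 in DESeq2). DESeq2 called 0 of the 3 genes at 10% RPS, with 2 at an unadjusted p under 0.05, and edgeR also called 0. On the log2 scale, Cckar minus the mean of the 3 genes was -2.61 ± 0.36 at 0% RPS, -2.82 ± 0.21 at 2%, -3.35 ± 0.21 at 5%, and -3.44 ± 0.33 at 10% (SD, n = 5). The 5% and 10% RPS libraries all lay below the 0% RPS libraries in this difference. Since Cckar was chosen for its fall and the 3 markers moved less, this separation follows from that choice and is a description. With the mean of the 3 genes as a covariate, a setting chosen after seeing the data, the fitted difference was -0.55 at 5% RPS and -0.51 at 10% RPS. What part of the fall goes with the number of these cells was not tested.

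**Figure D3:**
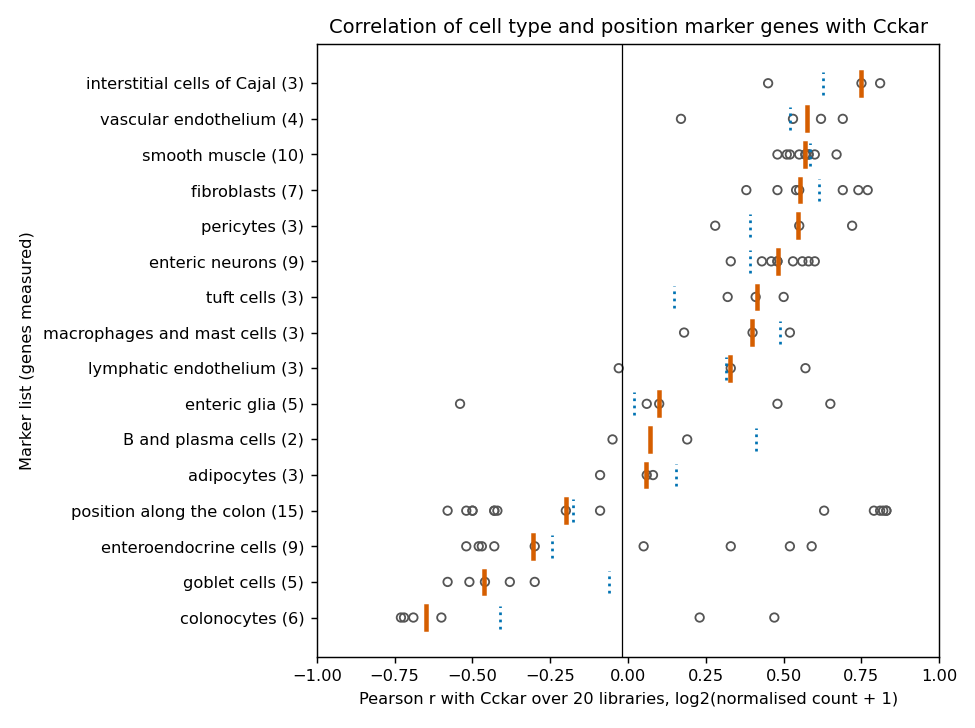
Pearson r with Cckar over the 20 libraries (x axis, no unit) for each marker gene (open circles) in each list (y axis, number of genes measured in brackets). Orange bars mark the list median, dotted blue bars the median after diet means were taken away, and the thin line the median of all genes (-0.02); interstitial cells of Cajal are at 0.75 and colonocytes at -0.65.

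Other lists of the muscle wall and stroma were also positively related to Cckar, less closely. The median r was 0.57 for 10 smooth muscle genes, from 0.48 for Actg2 to 0.67 for Cnn1, which encode gamma-smooth muscle actin and calponin. It was 0.55 for 7 fibroblast genes (Col1a1 0.38 to Lum 0.77), 0.58 for vascular endothelium (Kdr 0.17 to Pecam1 0.69), 0.55 for pericytes (Cspg4 0.28 to Pdgfrb 0.72), and 0.48 for 9 genes of enteric neurons (Nos1 highest at 0.60). These medians depended on 0% RPS replicate 2 to different degrees. Without it, the median was 0.37 for smooth muscle, 0.22 for fibroblasts, 0.33 for vascular endothelium, and 0.43 for pericytes, whereas it was 0.59 for enteric neurons and 0.70 for interstitial cells of Cajal.

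None of the smooth muscle, enteric neuron, or fibroblast genes was called by DESeq2 or edgeR at any percentage of RPS or in the trend. In the whole table, DESeq2 called 0.0239%, 0.438%, and 0.9% of the genes tested at 2, 5, and 10% RPS and 4.29% in the trend, and edgeR called 0%, 0.0566%, 0.323%, and 1.33%. At an unadjusted p under 0.05 in DESeq2, 0 of 10, 2 of 9, and 3 of 7 passed at 10% RPS, and 0, 5, and 3 in the trend. The share of all genes at that limit is not given here, so these counts cannot be set against it. The neuronal gene Prph was called in the DESeq2 trend when 0% RPS replicate 2 was left out. With all 20 libraries, all 10 smooth muscle genes had a negative difference at 10% RPS, with a median of -0.20, against -1.16 for Cckar. Their summed level ran from 140000 to 308000 normalised counts at 0% RPS and from 146000 to 241000 at 10% RPS, so the ranges overlapped. Cckar minus their mean log2 level went from -5.52 ± 0.22 at 0% RPS to -6.44 ± 0.58 at 10% RPS (SD, n = 5).

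Enteric glia and epithelial lists differed from this. The 5 glial genes had a median r of 0.10 (0.37 without 0% RPS replicate 2), with Gfap, which encodes an intermediate filament of glia, lowest at -0.54. DESeq2 called Gfap higher at 10% RPS (difference 0.61, SE 0.16, adjusted p = 0.00797), where 0.525% of all genes tested were called higher. Over the enteroendocrine genes, the cells that make CCK and other peptides, the median r was -0.31 (-0.029 without that library), from Nts (-0.52) to Insl5 (0.59). Insl5, the peptide hormone of distal L cells, was called lower at 10% RPS (difference -1.61, SE 0.48, adjusted p = 0.0258 in DESeq2; 0.374% of all genes tested), but its difference was -0.36 with an adjusted p of 0.343 without 0% RPS replicate 2. The median r was -0.65 for colonocytes (Epcam -0.73 to Slc26a3 0.47) and -0.46 for goblet cells (Tff3 -0.58 to Muc2 -0.30), and these came to -0.41 and -0.06 within diets. Without 0% RPS replicate 2, they were -0.54 and -0.58. With all libraries, DESeq2 called 0 of the 5 goblet genes at 10% RPS and in the trend. Without that library, it called Muc2 and Spdef at 10% RPS, with Spdef at 0.63 (SE 0.13, adjusted p = 0.000334). Clca1, Muc2, and Spdef were then called in the trend. The share of all genes called without that library is not given here. In the trend over all 20 libraries, DESeq2 called Gfap and Epcam higher and Pdgfrb lower.

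Tuft cells (0.41, Dclk1 0.32 to Trpm5 0.50), macrophages (0.40, Cd68 0.18 to Adgre1 0.52), lymphatic endothelium (0.33, Prox1 -0.03 to Ccl21a 0.57), B and plasma cells (0.07, Cd79a -0.05 to Jchain 0.19), and adipocytes (0.06, Cidec -0.09 to Plin1 0.08) had lower medians. Leaving out 0% RPS replicate 2 gave 0.025 for macrophages, -0.25 for B and plasma cells, and -0.09 for adipocytes. Of the pancreatic acinar genes, Cela1 alone was measured (r = 0.31, -0.34 without 0% RPS replicate 2). T cells and mesothelium were not analysed here.

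Genes that mark position along the gut moved with Cckar as well. The Hox genes are expressed in nested domains along the body axis, and their later members mark more distal gut. The 15 genes of this list that were measured had a median r of -0.20, which turned to 0.37 without 0% RPS replicate 2. All 6 of the Hoxa cluster had an r above 0.5 with Cckar over the 20 libraries, from 0.63 for Hoxa11 (0.37 without that library) to 0.83 for Hoxa5 and Hoxa9. The 9 genes outside that cluster ran from -0.58 for Osr2 to -0.09 for Hoxd8, but these values rested on the libraries at the ends of the Cckar range: without 0% RPS replicate 2 and 10% RPS replicate 5 the r was -0.12 for Osr2 and 0.53 for Hoxd8. Hoxa9 had 264, 2420, 257, 524, and 346 normalised counts at 0% RPS, 678, 232, 243, 389, and 241 at 2% RPS, 273, 228, 287, 195, and 247 at 5% RPS, and 223, 244, 202, 201, and 204 at 10% RPS. The 0% RPS replicate 2 was far above the rest, as it was for Hoxa13 with 1020 against 61.8 to 101 in the other 4 libraries of that diet, and all 5 libraries at 10% RPS were below the lowest at 0% RPS.

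DESeq2 called Hoxa5, Hoxa7, and Hoxa9 lower at 10% RPS and in the trend, where 0.374% and 1.89% of all genes tested were called lower. The difference was -0.83 (SE 0.27, adjusted p = 0.0432) for Hoxa5, -1.02 (SE 0.30, adjusted p = 0.0251) for Hoxa7, and -1.83 (SE 0.52, adjusted p = 0.0186) for Hoxa9. edgeR called 0 of the 15. Without 0% RPS replicate 2, DESeq2 called 0 at 10% RPS, where Hoxa9 differed by -0.70 (SE 0.27, adjusted p = 0.0921), and Hoxa5 and Hoxa9 stayed among those called in the trend. The mean log2 level of the 6 Hoxa genes had an r of 0.84 with Cckar, 0.80 within diets, and 0.79 without that library.

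Cckar minus that Hoxa mean was -0.26 ± 0.50 at 0% RPS, -0.15 ± 0.32 at 2%, -0.48 ± 0.15 at 5%, and -0.45 ± 0.34 at 10% (SD, n = 5, log2 scale). With all libraries kept, these ranges overlapped between all diets. The lowest 0% RPS value, -1.15, was that of replicate 2, the library highest for Cckar and for the Hoxa mean. The highest value was 0.04 at 0% RPS, 0.25 at 2%, -0.30 at 5%, and 0.02 at 10%. Ranges without that library are not given here. With the Hoxa mean as a covariate, chosen after seeing the data, the fitted Cckar difference was -0.51 at 5% RPS and -0.57 at 10% RPS. The level at which the segment was cut is not given per mouse, and its part in the fall of Cckar was not tested.

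Among genes of the CCK pathway, those that make the active peptide did not pass the test. The list holds the prohormone convertases Pcsk1 and Pcsk2, the convertase helper Scg5, carboxypeptidase E (Cpe), the amidating enzyme Pam, the sulfotransferases Tpst1 and Tpst2, and cathepsin L (Ctsl). DESeq2 and edgeR called 0 of these 8 at any percentage of RPS and in the trend, and at 10% RPS 2 of them had an unadjusted p under 0.05 in DESeq2. At 10% RPS, the differences ran from -0.35 (SE 0.18) for Pcsk2 and -0.34 (SE 0.16) for Cpe to 0.22 (SE 0.13) for Ctsl. Pcsk1 (0.14), Pam (-0.20), Scg5 (-0.18), Tpst1 (-0.18), and Tpst2 (0.05) lay between them. Cpe (r = 0.68), Pam (r = 0.65), and Tpst1 (r = 0.64) followed Cckar over the libraries, and Tpst2 (r = 0.00) did not.

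Downstream of the receptor, 24 of 30 listed genes of Gq and calcium signalling were measured, and DESeq2 called 0 of them at any percentage of RPS. At 10% RPS, 5 had an unadjusted p under 0.05 in DESeq2, and edgeR called 0. Their median difference at 10% RPS was near 0, as for all genes. The 3 largest were Gna14, a Gq family alpha subunit, at 0.68 (SE 0.41, adjusted p = 0.351), the inositol trisphosphate receptor gene Itpr2 at 0.32 (SE 0.08, adjusted p = 0.00602, under the 1.5-fold limit), and Rgs4, which shortens Gq signals, at -0.25 (SE 0.16, adjusted p = 0.407), all in DESeq2. In the trend test, which has no fold limit, DESeq2 called Itpr2 (adjusted p = 0.0093) and the calmodulin kinase gene Camk2d (adjusted p = 0.0434) higher, where 2.4% of all genes tested were called higher, and edgeR called neither. Camk2d was no longer called in the DESeq2 trend without 0% RPS replicate 2 (adjusted p = 0.0679). Camk2d had an r of -0.79 with Cckar and Itpr2 an r of -0.61. The Gq subunit genes Gnaq and Gna11 differed by -0.02 (SE 0.07) and -0.17 (SE 0.14).

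Other receptors for gut peptides and transmitters were listed to set Cckar beside its class, and 27 of 52 were measured. Per kilobase of exon, Cckar had 56.6 ± 26.3 normalised counts (SD over 20 libraries), which placed it at 18 of 28 with itself included. These levels pool all diets, so the SD of Cckar includes its fall over them, and the rank is not that of any single diet. Glp2r (59.1 ± 12.8) and Ptger3 (53.5 ± 9.02) were next to Cckar in level and did not differ from it beyond this pooled spread. Vipr1, a receptor for vasoactive intestinal peptide, was highest at 848 per kilobase. DESeq2 called 1 of the 27 at 5% and at 10% RPS, Tacr2, which encodes the neurokinin 2 receptor for tachykinins on gut smooth muscle. It was lower in both.

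Tacr2 had 233, 509, 231, 280, and 290 normalised counts at 0% RPS, 279, 213, 181, 200, and 163 at 2%, 197, 214, 187, 148, and 175 at 5%, and 239, 145, 133, 184, and 149 at 10% RPS. Its 5% RPS libraries were all below the lowest 0% RPS library, and 1 of the 5 at 10% RPS was not. DESeq2 gave a difference of -0.74 with an SE of 0.21 at 5% RPS (adjusted p = 0.0382) and of -0.86 with the same SE at 10% RPS (adjusted p = 0.00543), where 0.103% and 0.374% of all genes tested were called lower. In edgeR, the adjusted p was 0.138 and 0.0505. Without 0% RPS replicate 2, Tacr2 was no longer called at 5% RPS (-0.49, adjusted p = 0.0825 in DESeq2) and still called at 10% RPS (-0.61, adjusted p = 0.016 in DESeq2). Tacr2 had an r of 0.77 with Cckar, and 0.58 within diets.

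**Figure D4:**
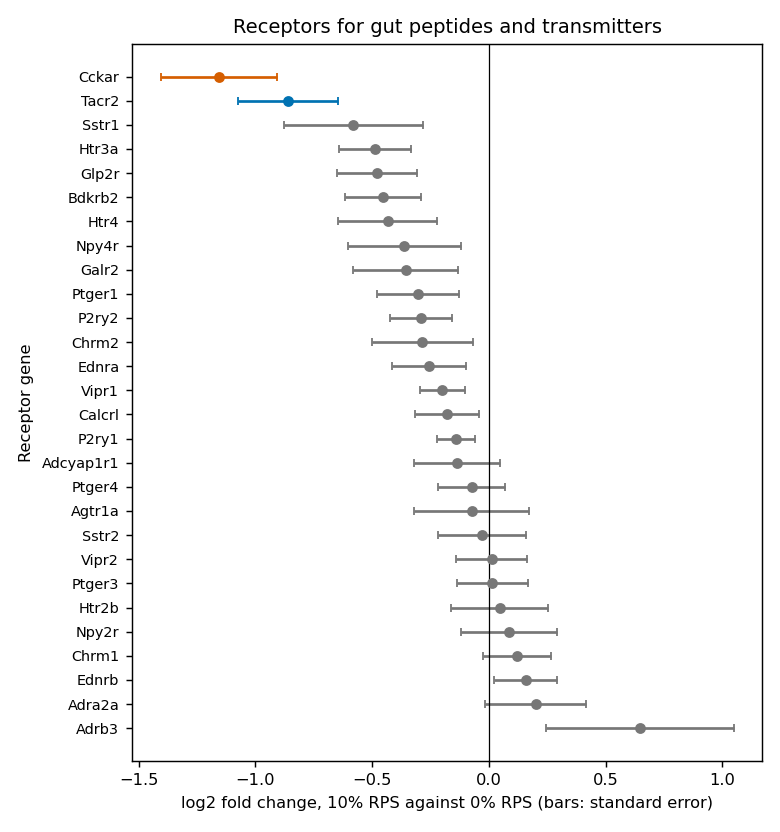
DESeq2 log2 fold change at 10% RPS against 0% RPS (x axis) with its standard error (bars) for Cckar (orange) and the 27 measured receptors for other gut peptides and transmitters (y axis, ordered by fold change; Tacr2 in blue). Cckar at -1.16 and Tacr2 at -0.86 lie lowest, and the rest run from -0.58 for Sstr1 to 0.65 for Adrb3.

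In the trend test, DESeq2 called 3 of the 27 receptors lower, Tacr2 (adjusted p = 0.0205), the serotonin-gated channel gene Htr3a (adjusted p = 0.0115), and the receptor for glucagon-like peptide 2, Glp2r (adjusted p = 0.0456), where 1.89% of all genes tested were called lower. At 10% RPS, Htr3a differed by -0.49 (SE 0.15) and Glp2r by -0.48 (SE 0.17). In edgeR, only Htr3a of the 3 was called in the trend, and without 0% RPS replicate 2 DESeq2 no longer called Glp2r (adjusted p = 0.0656). The r with Cckar was 0.74 for Htr3a and 0.68 for Glp2r. The median r over the 27 receptors was 0.41, and the median difference at 10% RPS was -0.18.

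The nearest genes of the table on chromosome 5 did not pass the test at any percentage of RPS. On the side of lower coordinates are Rbpj (40.4 kb away), Gm45495 (414.3 kb), and Smim20 (419.2 kb), and on the other side Tbc1d19 (101.9 kb), Stim2 (290.7 kb), and Pcdh7 (4010.0 kb). DESeq2 and edgeR called 0 of these 6, and 2 had an unadjusted p under 0.05 at 10% RPS in both. Rbpj, the DNA-binding partner of Notch, differed by -0.04 (SE 0.07) at 10% RPS. Stim2, a calcium sensor of the endoplasmic reticulum, was called higher in the DESeq2 trend (adjusted p = 0.0278), with 0.34 (SE 0.11) at 10% RPS. In that trend, 2.4% of all genes tested were called higher. edgeR did not call Stim2 in the trend (adjusted p = 0.0796).

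Tbc1d19 was the neighbour that followed Cckar most closely from mouse to mouse. It had 295, 402, 245, 322, and 342 normalised counts at 0% RPS and 236, 263, 238, 285, and 226 at 10% RPS. The groups overlapped, and its difference was -0.36 (SE 0.14, adjusted p = 0.126 in DESeq2). Its r with Cckar was 0.80, and 0.85 within diets. Without 0% RPS replicate 2 and 10% RPS replicate 5, it was 0.68. The other neighbours ran from -0.41 for Stim2 to 0.55 for Pcdh7. Pcdh7 also followed Cckar within diets, with an r of 0.71.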

How the data were processed

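RNA from PC was sequenced as 50-base single-end reads from stranded mRNA libraries. The authors deposited raw counts per Ensembl gene, made on GRCm39 with CLC Genomics Workbench. The annotation, strand use, multi-mapped reads, and the rule that left 12701 genes were not given in the sources used here. Gene symbols and positions came from GENCODE M39 (12682 identifiers matched). Libraries were grouped by labelled diet. Replicate numbers follow sample order and pair nothing, and p-values measure only the spread between these libraries. Across the 40 pairs within diets, no pair agreed within sampling noise (chi-square per degree of freedom at least 13.5).

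DESeq2 (version 1.42.0, R 4.3.3) was fitted to all 20 libraries with diet as the only term. The study names DESeq2 and the thresholds below but not the model terms. Calls needed at least a 1.5-fold change and an adjusted p (Benjamini-Hochberg, over all genes) not above 0.05. The trend on RPS percentage had no fold limit. Counts at an unadjusted p under 0.05 are given without the share over all genes and are not read as results about a list. Library totals set a floor of 3 counts, or 0.0855 to 0.146 CPM. edgeR (version 4.0.16, quasi-likelihood, TMM, 12366 genes), other scalings, filters, covariates, and left-out libraries were alternatives. The pipeline was tested on simulated data. Correlations used log2(normalised count + 1) for genes with a mean of at least 10.

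Cckar and its correlations carry no p, because they were used to choose it. The members and lists were chosen with earlier results of these data known. Named genes were all of the peptide processing list and neighbours, the 10 highest and 5 lowest r, the 5 highest within diets, the called or else 3 largest of each other pathway list, and the highest and lowest r of each marker list. Some genes that this rule selects are not reported here. Genes named outside this rule (Prph, Spdef, Clca1, Hoxa11, Hoxa13, Hoxd8, Osr2, Gnaq, Gna11, Camk2d, Htr3a, Glp2r, Vipr1, Ptger3, Sstr1, and Adrb3) were chosen after their values were seen.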

Additional observations from a re-analysis of the deposited data

Results flagged for a closer look

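In 64 groups of 5 libraries (16 named genes on 4 diets), 5 held a library set apart from the other 4 by more than Dixon's 95% limit of 0.71, and chance flags about 1 in 20 groups. Of these, 2 concerned 0% RPS replicate 2, the library highest for Cckar. Fbln1 had 5010 normalised counts in it against 1320 to 2270 in the other 4. Tacr2 had 509 against 231 to 290. The Hoxa genes were not among the 16 genes checked, so the flags do not cover every gene that stood apart in that library. There, Hoxa9 had 2420 against 257 to 524, Hoxa7 had 1620 against 380 to 620, and Hoxa13 had 1020 against 61.8 to 101. For Cckar itself, 526 counts gave a ratio of gap to range of 0.691, just under the limit. Elsewhere, Fbln1 had 1670 in 10% RPS replicate 1 against 1240 to 1360, Riok3 had 4380 in 5% RPS replicate 2 against 3950 to 3970, and Sdc2 had 1610 in 2% RPS replicate 5 against 1870 to 1920.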

How the results depend on the processing

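No paired analysis was possible because no replicate number in the labels links a library on 1 diet to one on another. The Cckar difference stayed negative at each percentage of RPS in all alternatives. Leaving out each library in turn, it ran from -0.51 to -0.12 at 2% RPS, -1.08 to -0.69 at 5%, and -1.29 to -0.87 at 10%, with slopes of -0.13 to -0.09, the smallest without 0% RPS replicate 2. With the interstitial cell of Cajal or the Hoxa mean as covariate it was -0.55 or -0.51 at 5% RPS, -0.51 or -0.57 at 10% RPS, and -0.057 or -0.060 for the slope. Both covariates were chosen after seeing the data. The smooth muscle, enteric neuron, fibroblast, and colonocyte means were also fitted as covariates, and those values are not given here.

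Counts of called genes moved as follows. Without the fold limit, the Gq list had 1 at 5% and 3 at 10% RPS, the receptors 2 at 10%, and the neighbours 1 at 10%. In edgeR, the Gq trend had 0, the receptors 0 at 5%, 0 at 10%, and 1 in the trend, and the neighbours 0 in the trend. With TMM factors in DESeq2, the Gq trend had 1. Over the left-out libraries, the counts were 0 to 1 for the peptide processing trend, 0 to 1 for Gq at 5% and at 10%, 0 to 2 for the Gq trend, 0 to 1 for receptors at 5%, 1 to 2 at 10%, and 0 to 3 in the trend, and 0 to 1 for the neighbour trend. Without 0% RPS replicate 2, Gna14 was called at 5% and 10% RPS, and Sstr1 joined Tacr2 at 10%, both chosen after their values were seen.

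The median r of the 10 genes nearest Cckar was 0.870, and 0.796 within diets. List medians within diets were -0.41 for colonocytes, -0.062 for goblet cells, 0.15 for tuft cells, and 0.41 for B and plasma cells. Without the 2 libraries farthest from the median Cckar level (0% RPS replicate 2 and 10% RPS replicate 5), they were -0.025 for enteroendocrine cells, 0.32 for vascular endothelium, -0.21 for B and plasma cells, and 0.16 for macrophages. Leaving out each library gave 0.37 to 0.68 for smooth muscle, 0.002 to 0.373 for glia, -0.363 to -0.029 for enteroendocrine cells, 0.22 to 0.70 for fibroblasts, 0.33 to 0.66 for vascular endothelium, -0.25 to 0.13 for B and plasma cells, and 0.025 to 0.519 for macrophages. The cause was not tested. Counts of 94 to 505 and 5 libraries a diet limit what can be seen for Cckar.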
